A study of Homo sapiens with 6 samples.

Results

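The genes described here are 38 targets of HIF-1 that lie outside glycolysis. They were chosen by name, as genes commonly reported to be driven by HIF-1, with earlier results of these data known. No rule on their measured values was used. All 38 were found among the 57611 genes of the count tables, and all 38 were among the 25544 genes with enough counts to be tested. RNA was sequenced from HEK293 cells, an established line of human embryonic kidney origin, in 3 WT libraries and 3 libraries labelled MUL1(-/-). MUL1 is an E3 ubiquitin ligase of the outer mitochondrial membrane, and the study used the comparison to ask how its loss alters metabolism. Both lines were grown in the same serum-containing DMEM, and no drug or oxygen condition is given in the labels of these libraries. The knockout was made with CRISPR-Cas9, the labels do not name the clone that was sequenced, and differences between clones cannot be told apart from the genotype here.

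HIF-1 is a transcription factor made of an oxygen-labile subunit, HIF-1α, and the constitutive partner ARNT. In the presence of oxygen, prolyl hydroxylases of the EGLN family mark HIF-1α for the VHL ubiquitin ligase and the proteasome, and when oxygen falls HIF-1 binds hypoxia response elements whose core is A or G followed by CGTG. UBXN7 is described by the study as a MUL1 substrate through which the amount of HIF-1α protein is controlled. Beyond glycolysis, the known targets handle acid, secrete vascular and hormonal signals, modify collagen, remove mitochondria, demethylate histones, take up iron and restrain growth.

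Promoters of 30 of the 38 genes were listed in the RefSeq table (GRCh38.p14, 250 bases before to 50 after each start site). HILPDA, ZNF395, JMJD6, BNIP3L, NDRG1, VEGFA, LOXL2 and STC1 had no entry. The core was searched as ACGTG and as GCGTG on both strands. The palindrome CACGTG holds ACGTG on both strands and was present in 10 of the 30 genes. ACGTG was present in 22 of the 30 genes (73.3%), against 24.9% of all 27305 genes in the table and 30.4% of the tested ones. GCGTG was present in 19 (63.3%), against 40.6% and 54.5%. Either core was present in 27 (90.0%), against 52.4% and 66.1%. A gene with several listed promoters was counted once, if any of them held the core. The share with ACGTG was 6 of 8 among genes higher in MUL1(-/-), 6 of 8 among genes lower and 10 of 14 among genes not called.

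The following upstream stretches are shown because they belong to genes that rose (CA9, ADM, LOX, TFRC and KDM4B) and genes that fell (BNIP3, P4HA1, PPFIA4 and ANKRD37) with the same core. Each runs 5′ to 3′ on the strand of the gene, from RefSeq on GRCh38.p14, with 20 bases on either side of the outermost cores as far as the 250 bases and the start site allow. Capitals mark ACGTG or GCGTG on the strand shown, or CACGT or CACGC where the core lies on the other strand.
CA9, chr9:35673890-35673927, plus strand: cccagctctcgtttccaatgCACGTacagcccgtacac
ADM, chr11:10304952-10304996, plus strand: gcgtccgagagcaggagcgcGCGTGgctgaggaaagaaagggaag
LOX, chr5:122078277-122078464, minus strand: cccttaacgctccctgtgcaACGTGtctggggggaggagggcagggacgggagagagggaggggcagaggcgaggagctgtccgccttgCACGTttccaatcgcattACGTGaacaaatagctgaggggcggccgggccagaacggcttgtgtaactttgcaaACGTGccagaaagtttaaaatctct
TFRC, chr3:196082154-196082198, minus strand: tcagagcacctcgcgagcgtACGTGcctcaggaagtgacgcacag
KDM4B, chr19:4968863-4969060, plus strand: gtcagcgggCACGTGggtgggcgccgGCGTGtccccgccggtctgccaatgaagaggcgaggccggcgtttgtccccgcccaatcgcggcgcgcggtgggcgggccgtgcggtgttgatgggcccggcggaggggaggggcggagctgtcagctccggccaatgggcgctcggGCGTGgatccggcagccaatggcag
BNIP3, chr10:131982003-131982086, minus strand: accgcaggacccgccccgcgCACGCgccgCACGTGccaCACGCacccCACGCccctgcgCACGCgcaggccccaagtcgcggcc
P4HA1, chr10:73096928-73096972, minus strand: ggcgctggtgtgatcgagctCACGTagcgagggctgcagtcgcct
PPFIA4, chr1:203026352-203026431, plus strand: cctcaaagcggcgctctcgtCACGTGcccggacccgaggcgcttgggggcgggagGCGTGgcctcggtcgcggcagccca
ANKRD37, chr4:185396659-185396722, plus strand: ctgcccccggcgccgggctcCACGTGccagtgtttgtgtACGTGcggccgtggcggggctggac
CA9 and P4HA1 each held 1 core within the stretch, read from the other strand, and they moved in opposite directions. BNIP3 held 6 matches in 84 bases and fell. LOX held 4 matches in the stretch shown, all of the ACGTG form, and rose. Its other listed promoters, not shown, each held 1 ACGTG and 1 GCGTG. A match of 5 letters describes the sequence and does not show that HIF-1 bound it.

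Counts summed over exon bins came to 132849479 to 149317215 per WT library and to 127466071 to 128125459 per MUL1(-/-) library. Levels are given as CPM, the gene's counts scaled to a fixed library size with TMM factors, and 3 counts, the floor used here, equalled 0.0201 to 0.0235 CPM before that scaling, a limit that covers counting error only. MUL1 itself was at 14.8, 14.5 and 18.2 CPM in WT and at 17.9, 15.9 and 18.4 CPM in the libraries labelled MUL1(-/-) (log2 fold change 0.14, SE 0.10, adjusted p = 0.325), so its count does not check the labels. All 8 markers of HEK293 cells were above the floor. Their summed level was 1270 to 1481 CPM in WT and 922 to 1089 CPM in MUL1(-/-), but 6 of them were called. PAX2 (log2 fold change -1.80), KRT8 (-0.93), LHX1 (-0.55) and VIM (-0.34) were lower. NEFM (1.06) and SALL2 (0.24) were higher, and NEFL and KRT18 were not called. Summed levels of the endothelial, leukocyte and hepatocyte marker lists were at most 2.24 CPM in any library. The fibroblast list summed to 22.8 to 30.3 CPM in WT and 26.9 to 35.6 CPM in MUL1(-/-). Of its 5 genes, LUM (log2 fold change 3.09) and DCN (1.30) were called higher, COL1A1, the most abundant, was called lower (-0.39), and COL1A2 and PDGFRB were not called. The part of these differences in the results below was not tested.

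The targets did not move in one direction. In the quasi-likelihood test of edgeR, with a gene called at an adjusted p under 0.05, 12 of the 38 genes were higher in MUL1(-/-) and 11 were lower, while 15 were not called. Over all tested genes, 18.8% were called higher and 18.7% lower, 37.6% in either direction. The targets are mostly well expressed, and the share called was 46.6% among the 16106 tested genes that averaged 1 CPM or more. Of the 37 targets at that level, 22 were called. The median log2 fold change of the 38 genes was -0.06, beside -0.01 over all genes tested. Levels did not overlap between the 3 WT and the 3 MUL1(-/-) libraries for 25 of the targets, 12 with MUL1(-/-) higher and 13 lower, where 48.6% of all tested genes did not overlap. With the added requirement of an absolute log2 fold change above 1, only CA9 and STC1 passed, both higher, against 8.08% of all tested genes. No target was below a log2 fold change of -1 in edgeR, DESeq2 or limma-voom at any p, and the lowest value over the 15 tested alternatives was -0.95. An absolute log2 fold change above 0.5 was reached by 11 called genes, 5 higher and 6 lower. The call of 14 genes held in all 15 alternatives that gave a test. These were ADM, KDM4B, LOX, TFRC, JMJD6, ZNF395 and STC1 with higher levels and BNIP3, KDM3A, P4HA1, MXI1, PPFIA4, HILPDA and DDIT4 with lower levels. For the counts of 11 and 14 no share over all tested genes is given, so they cannot be set against the background.

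**Figure D1:**
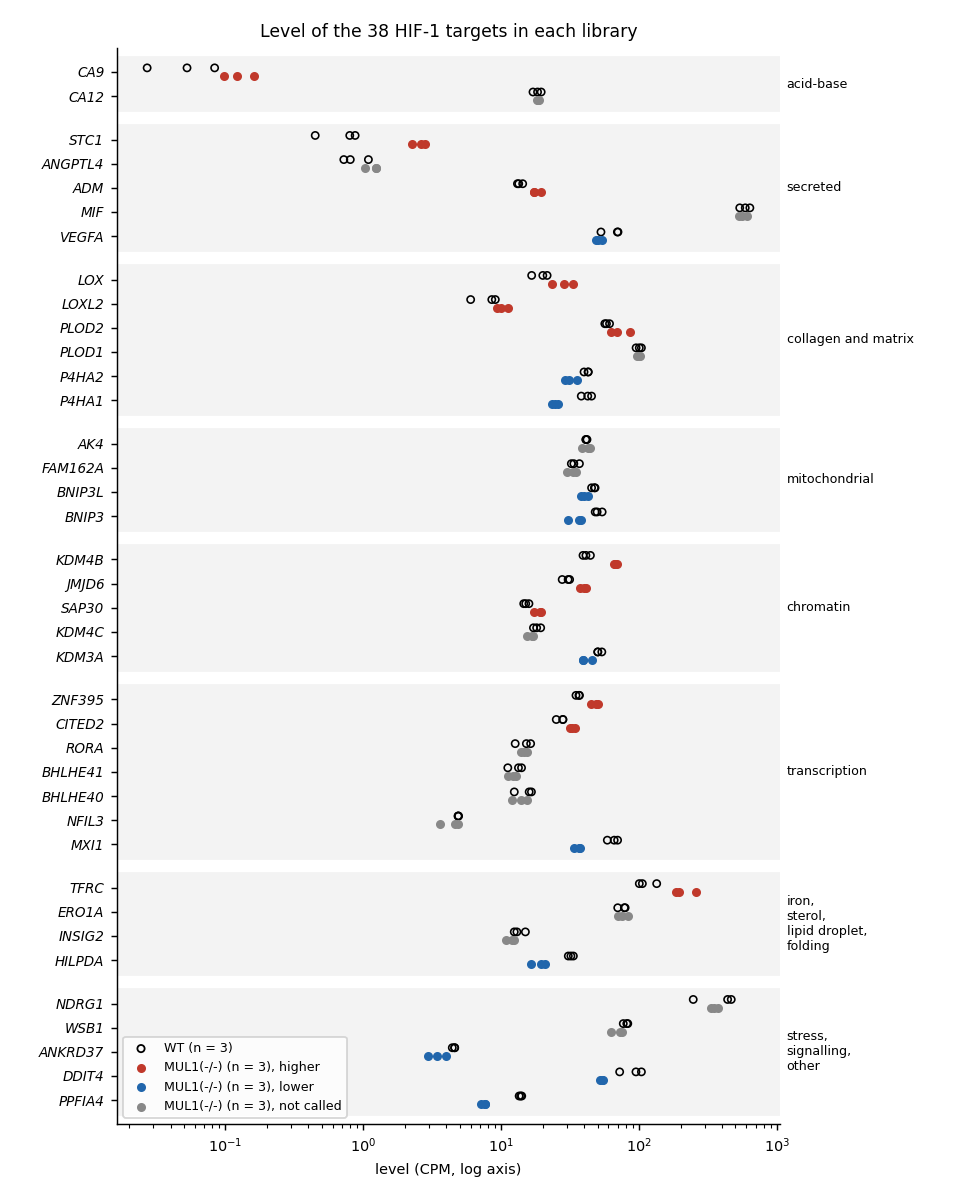
Level of each of the 38 targets in every library, in CPM on a log axis, with genes grouped by role. Open circles are the 3 WT libraries and filled circles the 3 MUL1(-/-) libraries, coloured by the call at an adjusted p under 0.05. Red and blue symbols are found side by side within most role groups, as for LOX, which was higher, and P4HA1, which was lower.

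Among genes of acid-base balance, CA9 encodes a membrane carbonic anhydrase that is widely used as a reporter of hypoxia. Its counts were 7, 4 and 11 in WT and 13, 16 and 21 in MUL1(-/-), or 0.0527, 0.0271 and 0.0835 CPM against 0.0982, 0.122 and 0.162 CPM. The groups did not overlap, but no library had more than 21 counts. In the fit it rose by a log2 value of 1.23 (SE 0.45, adjusted p = 0.0427). The call was lost in DESeq2 (adjusted p = 0.124) and when any single library other than WT replicate 3 was left out, with log2 fold changes of 1.22 without WT replicate 1, 0.89 without WT replicate 2, and 1.40, 1.27 and 1.02 without MUL1(-/-) replicates 1, 2 and 3. CA12, a second membrane carbonic anhydrase, averaged 18.3 ± 1.25 CPM in WT, beside 18.5 ± 0.287 CPM for MUL1(-/-) (SD, n = 3 each), and its log2 fold change of 0.02 (SE 0.08) was within the spread.

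Of the 5 secreted factors, STC1 and ADM rose, VEGFA fell, and ANGPTL4 and MIF were not called. STC1, a calcium-regulating glycoprotein, was at 0.798, 0.873 and 0.448 CPM in WT and at 2.82, 2.62 and 2.24 CPM in MUL1(-/-). This was the largest change of the 38 genes (log2 fold change 1.85, SE 0.20, adjusted p = 6.51e-06), and the MUL1(-/-) libraries lay clearly above those of WT. ADM encodes adrenomedullin, a vasodilator peptide. Its levels were 13.1, 13.4 and 14.3 CPM in WT and 17.3, 17.4 and 19.5 CPM in MUL1(-/-), with no overlap (log2 fold change 0.41, SE 0.09, adjusted p = 0.00189). VEGFA, the main angiogenic growth factor under HIF-1, was at 69.6, 70.3 and 52.9 CPM in WT and at 48.9, 54.2 and 50.3 CPM in MUL1(-/-). WT replicate 3 lay inside the MUL1(-/-) range, and VEGFA was the only called target whose groups overlapped (log2 fold change -0.33, SE 0.10, adjusted p = 0.015). Its value was -0.46 without WT replicate 3, and the call was lost without WT replicate 1 (-0.27), WT replicate 2 (-0.27) or MUL1(-/-) replicate 1 (-0.29). ANGPTL4, an inhibitor of lipoprotein lipase, was at 0.722, 1.09 and 0.805 CPM in WT and 1.24, 1.03 and 1.24 CPM in MUL1(-/-) (log2 fold change 0.42, adjusted p = 0.0869). WT replicate 2 overlapped MUL1(-/-), and without it the log2 fold change was 0.61 (adjusted p = 0.0323). The cytokine gene MIF ranged from 537 to 636 CPM in WT and from 530 to 610 CPM in MUL1(-/-), and all of its counts lay in bins that the antisense gene MIF-AS1 also covers.

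Of the 6 collagen and matrix enzymes, 3 were higher, 2 were lower and 1 was not called. P4HA1 and P4HA2 encode catalytic subunits of prolyl 4-hydroxylase, which stabilises the collagen helix, and both fell. P4HA1 was at 45.2, 42.5 and 38.1 CPM in WT and 24.6, 25.6 and 23.5 CPM in MUL1(-/-). The groups were far apart, and the level fell by 41.4% (log2 fold change -0.77, SE 0.08, adjusted p = 4.34e-06). P4HA2 changed by -0.40 on the log2 scale (SE 0.08, adjusted p = 0.00153), with 39.9 to 42.8 CPM in WT and 29.1 to 35.3 CPM in MUL1(-/-). LOX and LOXL2, which oxidise lysines to crosslink collagen, were higher, as was the lysyl hydroxylase PLOD2. LOX was at 21.5, 20.04 and 16.6 CPM in WT and 23.3, 28.6 and 33.0 CPM in MUL1(-/-), where the lowest MUL1(-/-) library was close to the highest of WT (log2 fold change 0.54, SE 0.12, adjusted p = 0.00241). PLOD2 changed by 0.31 on the log2 scale (SE 0.10, adjusted p = 0.0189), led by MUL1(-/-) replicate 3 at 86.2 CPM, and without that library the value was 0.18 with no call. Leaving out WT replicate 1 (0.29) or WT replicate 2 (0.30) also removed the call of PLOD2. LOXL2 was at 6.01 to 9.07 CPM in WT and 9.36 to 11.2 CPM in MUL1(-/-) (log2 fold change 0.37, SE 0.14, adjusted p = 0.0463), and its call was lost without any 1 of 4 libraries, WT replicates 2 (0.43) and 3 (0.20) and MUL1(-/-) replicates 1 (0.43) and 2 (0.30). PLOD1, the paralogue of PLOD2, was at 99.8 ± 4.44 and 99.5 ± 2.17 CPM (SD, n = 3 each).

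Of the mitochondrial genes, both receptors of mitophagy were lower and the other pair was not called. BNIP3, a receptor that brings mitochondria to autophagosomes and a strong responder to hypoxia, was at 49.7, 48.1 and 54.0 CPM in WT and 36.4, 37.8 and 30.6 CPM in MUL1(-/-). No MUL1(-/-) library reached the lowest WT library, and the level fell by 30.9% (log2 fold change -0.53, SE 0.09, adjusted p = 0.000219). Its homologue BNIP3L was at 47.4, 45.3 and 48.0 CPM in WT and 37.99, 42.3 and 40.05 CPM in MUL1(-/-). The groups did not overlap, but the change was smaller (log2 fold change -0.22, SE 0.07, adjusted p = 0.0236), and its call was lost without WT replicate 1 (-0.22) or MUL1(-/-) replicate 1 (-0.17). AK4, a mitochondrial adenylate kinase, and FAM162A had log2 fold changes of 0.01 (SE 0.07) and -0.07 (SE 0.08).

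Among chromatin regulators, KDM4B, JMJD6 and SAP30 were higher and KDM3A was lower. KDM3A removes methyl groups from lysine 9 of histone H3, and it is among the oxygen-dependent dioxygenases whose genes HIF-1 itself drives. It was at 50.2, 50.2 and 53.7 CPM in WT and at 39.0, 38.9 and 45.6 CPM in MUL1(-/-), without overlap (log2 fold change -0.32, SE 0.08, adjusted p = 0.0053). KDM4B, a demethylase of the same histone residue, went the other way, from 41.6 ± 2.60 CPM in WT to 67.3 ± 1.97 CPM for MUL1(-/-) (SD, n = 3 each), a rise of 0.69 on the log2 scale (SE 0.07, adjusted p = 3.6e-06). Their relative KDM4C was at 18.2 ± 1.10 and 16.4 ± 0.974 CPM and was not called. JMJD6, another dioxygenase of the JmjC family, changed by 0.41 on the log2 scale (SE 0.08, adjusted p = 0.000812). SAP30, a subunit of the Sin3 histone deacetylase complex, changed by 0.29 on the log2 scale (SE 0.08, adjusted p = 0.013), and of 0.28 without WT replicate 2, where its call was lost.

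Of the 7 transcription regulators, MXI1 was lower, ZNF395 and CITED2 were higher, and 4 were not called. MXI1 competes with MYC for MAX. It ranged from 58.9 to 69.9 CPM in WT and from 33.5 to 37.2 CPM in MUL1(-/-), so that the level fell by 44.8% (log2 fold change -0.86, SE 0.08, adjusted p = 1.45e-06). CITED2 competes with HIF-1α for the coactivators CREBBP and EP300 and thereby limits the HIF response. It was at 28.0, 25.1 and 28.0 CPM in WT and 31.4, 32.9 and 34.2 CPM in MUL1(-/-), all above WT (log2 fold change 0.28, SE 0.08, adjusted p = 0.0107). Without WT replicate 2 the value was 0.22 and the call was lost. ZNF395, a zinc finger protein, changed by 0.41 on the log2 scale (SE 0.07, adjusted p = 0.000535), and FBXO16 covers bins that held 57.6% of its counts. In the bins of ZNF395 that no other gene touches the value was 0.38. The clock-related repressors BHLHE40 and BHLHE41, the nuclear receptor RORA and NFIL3 had log2 fold changes from -0.17 to -0.01, each within 1.5 times its SE. RORA-AS1 shared 56.7% of the counts of RORA, and SSPN shared 51.5% of those of BHLHE41.

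The genes of iron, sterol, lipid and protein handling gave 1 higher, 1 lower and 2 not called. TFRC encodes the transferrin receptor, which takes up iron, and it rose by 88.8%. It was at 106, 100 and 134 CPM in WT and 196, 186 and 261 CPM in MUL1(-/-), with replicate 3 the highest in both groups (log2 fold change 0.92, SE 0.12, adjusted p = 3.84e-05). HILPDA coats lipid droplets and inhibits the triglyceride lipase ATGL. It was at 33.4, 32.0 and 30.7 CPM in WT and 20.6, 19.4 and 16.5 CPM in MUL1(-/-), far apart, and the level fell by 41.2% (log2 fold change -0.77, SE 0.09, adjusted p = 1.2e-05). Bins that HILPDA-AS1 or ENSG00000273184 also cover held 40.9% of the counts of HILPDA. Its log2 fold change was -0.82 to -0.67 over the 15 alternatives, bins no other gene touches among them. INSIG2, which retains the sterol sensor SCAP in the endoplasmic reticulum, had a log2 fold change of -0.20 (adjusted p = 0.127), and ERO1A, the oxidase of disulphide formation, one of 0.01 (adjusted p = 0.955).

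In the group of stress and signalling genes, 3 of 5 were lower, and all 5 had a negative log2 fold change. PPFIA4, a liprin of synaptic and adhesion sites, had the largest fall of the 38 genes, from 13.8, 13.5 and 14.1 CPM in WT to 7.65, 7.68 and 7.14 CPM in MUL1(-/-). The replicates lay close together and the level fell by 45.8% (log2 fold change -0.88, SE 0.09, adjusted p = 2.93e-06). DDIT4, an inhibitor of mTORC1 under stress, was at 104, 94.9 and 72.3 CPM in WT and 54.5, 53.5 and 52.0 CPM in MUL1(-/-). The WT values were spread widely but all lay above MUL1(-/-) (log2 fold change -0.76, SE 0.10, adjusted p = 4.65e-05). The antisense gene DDIT4-AS1 covers bins with 51.0% of the counts of DDIT4, and in the remaining bins the log2 fold change was -0.81. ANKRD37, a small ankyrin-repeat protein often used in hypoxia signatures, was at 4.60, 4.59 and 4.42 CPM in WT and 4.01, 3.43 and 2.96 CPM in MUL1(-/-) (log2 fold change -0.39, SE 0.13, adjusted p = 0.0245). The opposite-strand gene UFSP2 overlaps bins with 55.5% of its counts. Its most counted bin alone gave 0.082, and the bins that no other gene touches gave -0.67 (adjusted p = 0.00438). The call of ANKRD37 was lost without WT replicate 1 (-0.38), WT replicate 2 (-0.38), or MUL1(-/-) replicates 2 (-0.37) or 3 (-0.29).

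NDRG1, a stress-response gene that is a sensitive reporter of hypoxia, was at 466, 439 and 247 CPM in WT and at 331, 351 and 371 CPM in MUL1(-/-). WT replicate 3 was below every MUL1(-/-) library, while WT replicates 1 and 2 were above them all. With all 6 libraries the log2 fold change was -0.13 (SE 0.16, adjusted p = 0.566), and without WT replicate 3 it was -0.37 (adjusted p = 0.00087). Of the 38 targets, 22 were lowest among the WT libraries in replicate 3, VEGFA and DDIT4 among them. Another 12 were highest there, among them BNIP3, KDM3A and ADM. No share over all tested genes is given for these counts, so they cannot be read as particular to the targets. WSB1, a substrate adaptor of a cullin ubiquitin ligase, was at 80.4 ± 3.15 CPM in WT, beside 70.1 ± 6.42 CPM for MUL1(-/-) (SD, n = 3 each), without overlap, and was not called (log2 fold change -0.20, adjusted p = 0.0583). It passed without WT replicate 3 (-0.23) or without MUL1(-/-) replicate 3 (-0.25).

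The exon bins, the stretches between neighbouring exon edges for which counts were deposited, show how evenly a change runs along a gene. Of 1080 bins of the 38 genes, 428 averaged 1 CPM or more over the groups, and they belonged to 35 genes. Of the 18 called genes with 5 or more such bins, 17 had all of them on the side of the call, the exception being VEGFA. Another 3 called genes had 1 such bin each, and that of ANKRD37, shared with UFSP2, had a ratio of 0.066, against its call. All 28 bins of TFRC were higher without overlap between the groups, by log2 ratios of 0.80 to 1.05, and so were all 24 of KDM4B, by 0.51 to 0.84. All 17 bins of P4HA1 were lower without overlap, by -0.89 to -0.58, as were all 9 of BNIP3, all 9 of HILPDA, all 13 of MXI1 and all 5 of DDIT4. A read is counted in each bin it touches, so neighbouring bins are not independent. The calls rest on sums over these same bins, so bins on the side of the call are no separate support for it.

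VEGFA, MXI1 and WSB1 were uneven. In VEGFA, the 7 bins from 43770213 to 43771312 on chromosome 6, at the 5′ end, had log2 ratios of -0.09 to 0.08 and overlapped between groups in every case. The 17 later bins, from 43774341 to 43786439, had ratios of -0.71 to -0.11, and 8 of them did not overlap. In MXI1, the bin at the 5′ end (chromosome 10, 110207684 to 110208082) had a ratio of -0.40, while the other 12 lay between -1.07 and -0.74. That bin is also covered by an antisense gene, and the other 12 are covered by no other gene. In WSB1, the 6 bins from 27307744 to 27309099 on chromosome 17 summed to 14.9, 14.3 and 13.5 CPM in WT and 6.71, 9.34 and 7.51 CPM in MUL1(-/-). That stretch fell by 44.9%, with ratios of -1.15 to -0.70 in the 6 bins. The other 23 bins of WSB1 at 1 CPM or more summed to 63.8 ± 2.16 CPM in WT, beside 59.6 ± 5.42 CPM for MUL1(-/-) (SD, n = 3 each), with overlap. The last bin of WSB1 was higher, at a ratio of 0.55. These stretches were chosen after their values were seen and carry no test, and positions are those of the files on GRCh38.

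**Figure D2:**
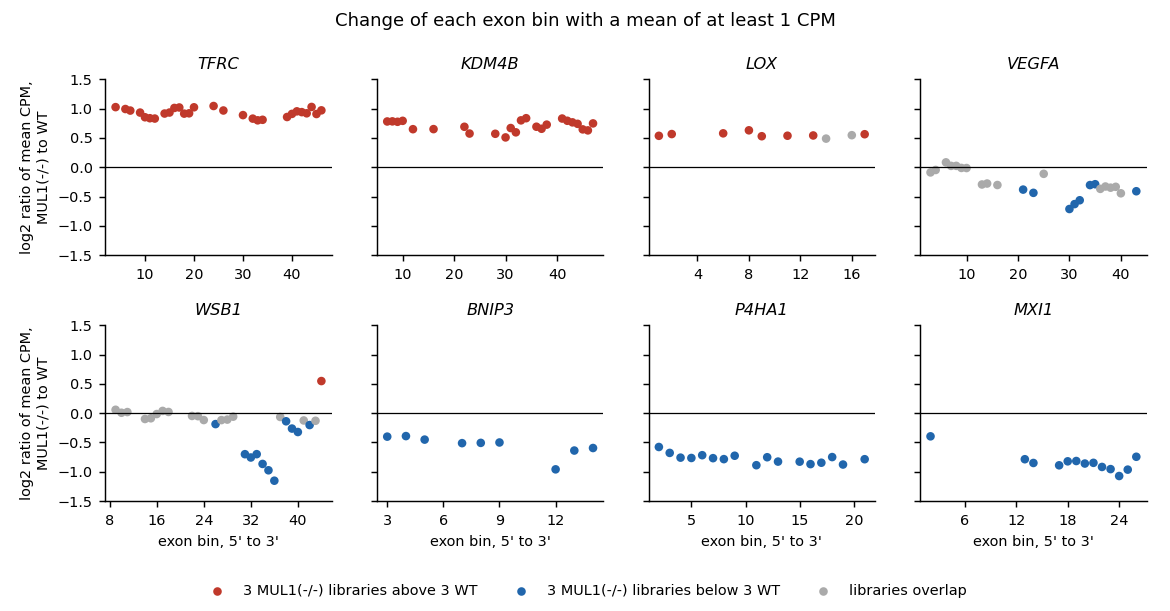
Log2 ratio of mean CPM in MUL1(-/-) to WT for each exon bin with a mean of at least 1 CPM, in order from 5′ to 3′, for 8 targets. Red and blue points are bins whose 3 MUL1(-/-) values lie all above or all below the 3 WT values, and grey points are bins that overlap. TFRC, KDM4B, BNIP3, P4HA1 and MXI1 are shifted in every bin, VEGFA is near 0 at its 5′ end, and WSB1 is lowered over 6 adjoining bins.

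Several targets lay among neighbours that moved with them. For each gene, tested genes were ordered by start along its chromosome, and the median log2 fold change of 20 neighbours in that order was taken. As many lay on one side as on the other, except near chromosome ends. This median had the sign of the target in 16 of the 23 called genes (69.6%), and in 9 (39.1%) it was also beyond 0.3 in size. Over all 9552 called genes with a window the shares were 73.7% and 34.3%, close to those of the targets. The median was 0.72 around TFRC (gene 0.92), 0.53 around KDM4B (gene 0.69), -0.58 around MXI1 (gene -0.86), -0.52 around DDIT4 (gene -0.76) and -0.45 around P4HA1 (gene -0.77). All 4 targets on chromosome 10, BNIP3, P4HA1, DDIT4 and MXI1, were lower, and all 4 windows had negative medians. DDIT4 lies within the window of P4HA1, and these windows share 9 genes, so they are not separate observations. On chromosome 8, the medians were 0.52 around STC1, 0.62 around LOXL2, 0.34 around ZNF395, 0.46 around BNIP3L and 0.05 around NDRG1. LOXL2 and STC1 share 11 window genes, and BNIP3L shares 6 with STC1 and 2 with ZNF395.

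Other changes had no such counterpart nearby. Around PPFIA4 the neighbours had a median of 0.01, around ADM 0.01, around KDM3A -0.02, around CITED2 0.00, around JMJD6 -0.09 and around LOX -0.16. BNIP3L was lower amid neighbours that were higher, and its difference from their median was -0.69. WSB1 likewise stood 0.64 below a median of 0.44. The difference from the neighbours was 0.20 for TFRC, 0.16 for KDM4B and 0.07 for ZNF395, and for LOXL2 it was negative, at -0.25, the only called gene that changed sign. The part of these regional differences in the level of any target was not tested.

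**Figure D3:**
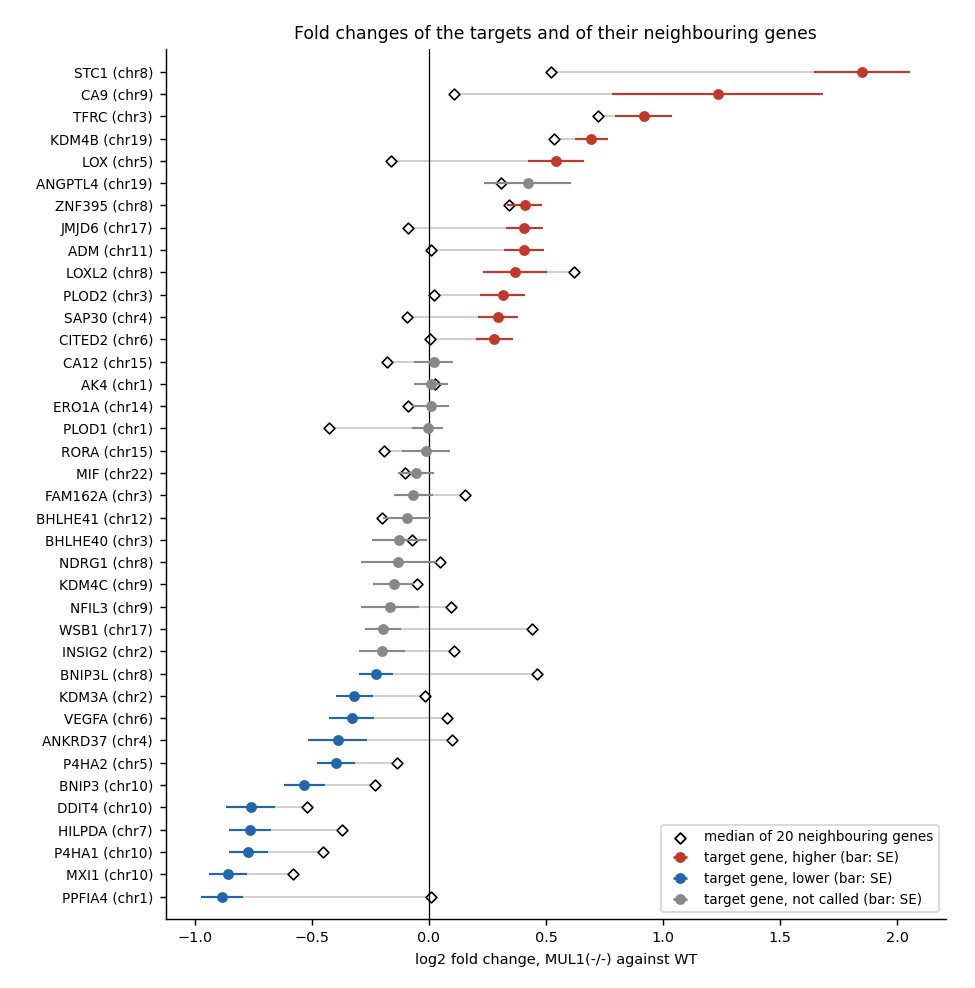
Log2 fold change of each of the 38 targets in MUL1(-/-) against WT with its SE (filled circles, coloured by call), and the median of the 20 neighbouring tested genes on the same chromosome (open diamonds). The diamonds lie near the circles for TFRC, KDM4B, ZNF395 and DDIT4, and near 0 for PPFIA4, ADM and CITED2.

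The oxygen-sensing machinery upstream was also mixed. Of 17 of its genes, 6 were higher, 5 were lower and 6 were not called, with a median log2 fold change of -0.08. Over all tested genes, 18.8% were called higher and 18.7% lower. The share called either way was 46.6% among tested genes averaging 1 CPM or more, and the difference from the 17 was not tested. HIF1A was at 93.2, 87.9 and 99.2 CPM in WT and 89.3, 103 and 101 CPM in MUL1(-/-), with overlap (log2 fold change 0.07, SE 0.08, adjusted p = 0.53). HIF-1α is controlled mainly at the protein level, which these data do not measure. ARNT, which encodes its partner, was lower, at -0.42 (SE 0.07, adjusted p = 0.000212). EPAS1, which encodes HIF-2α, was also lower, at -0.37 (SE 0.12, adjusted p = 0.026). The paralogue ARNT2, named after its values were seen, went the other way, from 7.36, 6.63 and 6.88 CPM in WT to 16.7, 18.1 and 20.02 CPM in MUL1(-/-), the only gene of the 17 past both thresholds (log2 fold change 1.39, SE 0.10, adjusted p = 7.75e-08). VHL was lower at -0.39 (SE 0.07, adjusted p = 0.000319). The hydroxylase EGLN1 was higher at 0.41 (SE 0.08, adjusted p = 0.00113), whereas EGLN3, a hydroxylase gene strongly induced by hypoxia, had a value of -0.19 (adjusted p = 0.119). UBXN7 was at 68.4, 71.2 and 60.7 CPM in WT and 89.7, 94.5 and 79.5 CPM in MUL1(-/-), all higher (log2 fold change 0.40, SE 0.08, adjusted p = 0.00149). It lies near TFRC on chromosome 3, and their windows share 10 genes.

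The glycolytic targets of HIF-1 leaned lower. Of 21, 1 was higher, 10 were lower and 10 were not called, where 18.8% of all tested genes were higher and 18.7% lower. Their median log2 fold change was -0.20 beside -0.06 for the 38 targets outside glycolysis. The glucose transporter gene SLC2A1 was the one that rose, at 0.86 (SE 0.08, adjusted p = 1.21e-06). PGK1 was lower at -0.28 (SE 0.06, adjusted p = 0.00207), and LDHA and PDK1 were at -0.11 (adjusted p = 0.223) and -0.10 (adjusted p = 0.351). The glycolytic targets on chromosome 10, HK1, PFKP, PFKFB3 and PGAM1, were all called lower, as were the 4 targets outside glycolysis there. Bins shared with other genes held 93.9% of the counts of ALDOA and 44.0% of those of GAPDH, both called lower. The part of position and of shared bins in these calls was not tested, nor was the difference between the lists.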

How the data were processed

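RNA-seq of 3 WT and 3 MUL1(-/-) HEK293 libraries was re-analysed from the deposited tables. The authors deposited raw read counts for each of 597973 exon bins under 54848 identifiers, without normalization, on GRCh38. The submitters' processing notes name Trimmomatic 0.36 and STAR 2.5.2b, and the counting program, its strand setting and the annotation release are not given in the sources used here, so reads of a gene and its antisense partner cannot be told apart. A read is counted in each bin it touches, since 1760 bins no longer than 12 bases had more than 1000 counts. Gene counts were the sums over bins, so they exceed the number of reads and are less precise than their size implies. Bins under the 2031 joined identifiers were assigned by same-strand GENCODE 29 exons.

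Genes passing filterByExpr were tested with edgeR 4.0.16 in R 4.3.3 (TMM factors 0.946 to 0.992 in WT and 1.02 to 1.03 in MUL1(-/-), quasi-likelihood test, genotype as the only term), with Benjamini-Hochberg adjustment over all 25544 genes. DESeq2 1.42.0, the study's test, and limma 3.58.1 were alternatives, with other scalings, filters, gene counts and a replicate block, and each library left out. The tests were run on simulated counts for 25544 genes, of which 200, all above 1 CPM, were changed by a log2 value of 2. All 200 were recovered by each test, with 15, 29, 14 and 11 false calls in edgeR, DESeq2, limma-voom and the block. In the main fit every target changed by less than that, and CA9 lay below 1 CPM. Reads counted in several bins were not simulated. Recovery of changes of the size called here was therefore not tested. Replicates differed by a chi-square over degrees of freedom of 2.92 to 9.61 and were kept separate. Reads counted in several bins raise such a ratio, so it is not a plain multiple of the sampling noise of reads. The study's statistics section speaks of independent experiments for its quantitative data in general, and nothing says of these libraries that they came from separate cultures, so p-values measure the spread between these samples, which may be technical. Windows, bins and promoters were handled in Python 3.11.15 with numpy 2.4.6, pandas 2.3.3 and matplotlib 3.10.9. The 38 genes, their roles and the lists beside them were chosen with earlier results of these data known. Values in every library are given for genes past both thresholds and for commonly used HIF-1 reporters, a rule set in advance, and for others chosen after their values were seen.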

Additional observations from a re-analysis of the deposited data

How the results depend on the processing

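Of 38 targets, 23 were called, and the number was 17 to 24 when 1 library was left out (8 to 11 higher, 8 to 13 lower). It was 22 in DESeq2, 23 in limma-voom and 21 with library totals only. From the most counted bin of each gene it was 18, and from bins no other gene touches 20. In the main fit 37.6% of all tested genes were called, and that share is not given for the other settings. With an absolute log2 fold change above 1 also required, 2 remained, of which 2 were higher and 0 lower. Among called targets, reversed signs came from the most counted bin of ANKRD37 (0.082, adjusted p = 0.702, against -0.39) and from LOXL2 less the median of its neighbours (-0.25, against 0.37). The causes were not tested.

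The replicate numbers were not taken to pair the libraries, since same-numbered libraries had deviations correlating at -0.0965, 0.165 and 0.0995. With the replicate block 22 targets were called, 11 higher and 11 lower, and CA9 lost its call (adjusted p = 0.0527). BNIP3L lost its call with library totals only (-0.15), without the filter on low counts (-0.20) and in bins no other gene touches (-0.19). ANKRD37 lost its call with library totals only (-0.32), as did LOXL2 in bins no other gene touches (0.36), and P4HA2 (-0.29), PLOD2 (0.29) and SAP30 (0.26) in the most counted bin. WSB1 passed with at least 1 CPM in 3 samples required (-0.19). Targets that were not called and lay near 0 changed sign in places, and no value with a changed sign was past the test. Leaving out 1 library gave -0.034 to 0.065 for CA12, -0.028 to 0.075 for AK4, -0.052 to 0.070 for ERO1A, -0.043 to 0.025 for PLOD1, -0.12 to 0.064 for RORA, -0.12 to 0.0021 for MIF and -0.37 to 0.030 for NDRG1, whose lowest value, without WT replicate 3, was called. PLOD1 was at 0.0018 in DESeq2 and with RLE factors, 0.0060 with 1 CPM required, 0.024 without a filter and 0.079 in its most counted bin. RORA was at 0.016 without a filter and 0.12 in bins no other gene touches. With library totals only, PLOD1 was at 0.065, RORA at 0.057, MIF at 0.016 and FAM162A at 0.0034. Depth limits CA9, which had 4 to 21 counts per library.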
